A study of Arabidopsis thaliana with 12 samples.

Results

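Receptor-like proteins (RLPs) were followed here in rosette leaves of Arabidopsis thaliana, in wild-type plants and in a line that overexpresses the transcription factor ERF34, with and without salt. The members were the genes whose name in the deposited count table is RLP followed by a number, 54 of 33597 named genes. Rosette leaf 3 and leaf 4 were used, with 3 libraries in each of 4 groups. These were wild-type Columbia-0 under mock, wild-type Columbia-0 under 100 mM NaCl, the overexpressor under mock, and the overexpressor under 100 mM NaCl. The overexpressor is a single line, ERF34-OX#1, in the Columbia background, in which the CsVMV promoter drives ERF34 with GFP at its N terminus. Salt was given for 1 day to detached leaves at 16 DAE (the labels' unit of leaf age), floating on 3 mM MES buffer at pH 5.8. The mock libraries carry the same treatment text, so whether mock leaves were also detached and floated is not stated. If they were not, each comparison called salt below also holds detachment and floating, which cannot be told apart from NaCl. The labels call the replicates independent biological ones.

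RLPs are cell-surface receptors with an ectodomain of leucine-rich repeats, a transmembrane helix and a short cytoplasmic tail without a kinase. Those that sense microbial patterns are held in a complex with the receptor kinase SOBIR1 and recruit the co-receptor BAK1 once the ligand is bound. Signalling then runs through cytoplasmic kinases and, for several leaf RLPs, through the lipase-like proteins EDS1 and PAD4 with the helper protein ADR1. A smaller set acts in development, with CLV2 in the meristem and TMM in the stomatal lineage. Many RLP genes sit in tandem arrays of close copies.

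The libraries held 14301312 to 18398594 counts for wild type and 10425430 to 12704898 for the overexpressor, so each overexpressor library was shallower than every wild-type library. A single model over all 12 libraries (edgeR's quasi-likelihood test, Benjamini-Hochberg adjustment over 18886 genes, threshold 0.05) gave every adjusted p below unless another tool is named. Levels are CPM, library-size-scaled counts with TMM factors, and given as mean ± SD with n = 3. Under mock, ERF34 was at 8.82 ± 5.52 CPM without the transgene and at 1051 ± 46.0 CPM with it, a log2 difference of 6.89 (SE 0.603, adjusted p = 0.00254). Under NaCl it was at 13.0 ± 6.14 and 934 ± 144 CPM, and the groups did not overlap in either condition. The 3 mesophyll markers summed to 14191 to 15357 CPM in wild-type mock and 9737 to 11567 CPM in wild-type NaCl leaves. In the overexpressor the sums were 14234 to 15309 CPM under mock and 12439 to 14318 CPM under NaCl. Phloem markers summed to 630.0 to 784 CPM in wild-type mock and 495 to 547 CPM in wild-type NaCl leaves, and epidermis markers to 167 to 254 and 119.7 to 188 CPM. Epidermis markers in the overexpressor summed to 217 to 258 CPM under mock and 241 to 256 CPM under NaCl. Root markers summed to at most 0.515 CPM and flower markers to at most 0.195 CPM under mock, with WOX5, STM and WUS at 0 in every library. Flower markers reached 1.01 CPM in wild-type NaCl and 2.73 CPM in overexpressor NaCl leaves. PI, a floral organ gene, was the single one tested and rose with salt in the overexpressor (log2 4.70, SE 1.39, adjusted p = 0.0406), and its part in the results below was not tested.

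Taken over the 54 genes, RLP transcripts made up 0.0502% to 0.0552% of counts in wild-type mock leaves and 0.154% to 0.183% in wild-type NaCl leaves. In the overexpressor the share was 0.0671% to 0.0872% under mock and 0.134% to 0.159% under NaCl. The 4 groups did not overlap except that the highest overexpressor NaCl library lay within the range of wild-type NaCl. Fewer cells of a type and less RNA per cell cannot be told apart in such bulk samples. RLP5, RLP25 and RLP55 had 0 counts in all 12 libraries, which allows at most 0.0606 CPM in wild-type NaCl and 0.0833 CPM in overexpressor mock leaves (3 counts over each group, counting error only). RLP15, RLP29, RLP44 and RLP48 were too low for the test, and 47 members were tested. In 34 members the highest group mean was 10 CPM or more and in 5 it was 100 CPM or more.

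Per kilobase of exon, the order of the members changed with salt. In wild-type mock leaves RLP54 led with 35.1 CPM per kb, followed by RLP4 at 19.2 and RLP47 at 15.9. In wild-type NaCl leaves RLP23 led with 101 ± 19.0 CPM per kb, followed by RLP41 at 71.4 ± 10.0 and RLP34 at 67.5 ± 10.2. The last pair lay within 1 SD of each other. RLP54 then ranked 4 of 54 with 37.2 CPM per kb. RLP23, RLP34 and RLP41 together supplied 9.13% to 11.7% of all RLP CPM in wild-type mock leaves and 39.0% to 44.2% in wild-type NaCl leaves. In the overexpressor they supplied 12.4% to 16.1% under mock and 38.0% to 43.6% under NaCl.

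**Figure D1:**
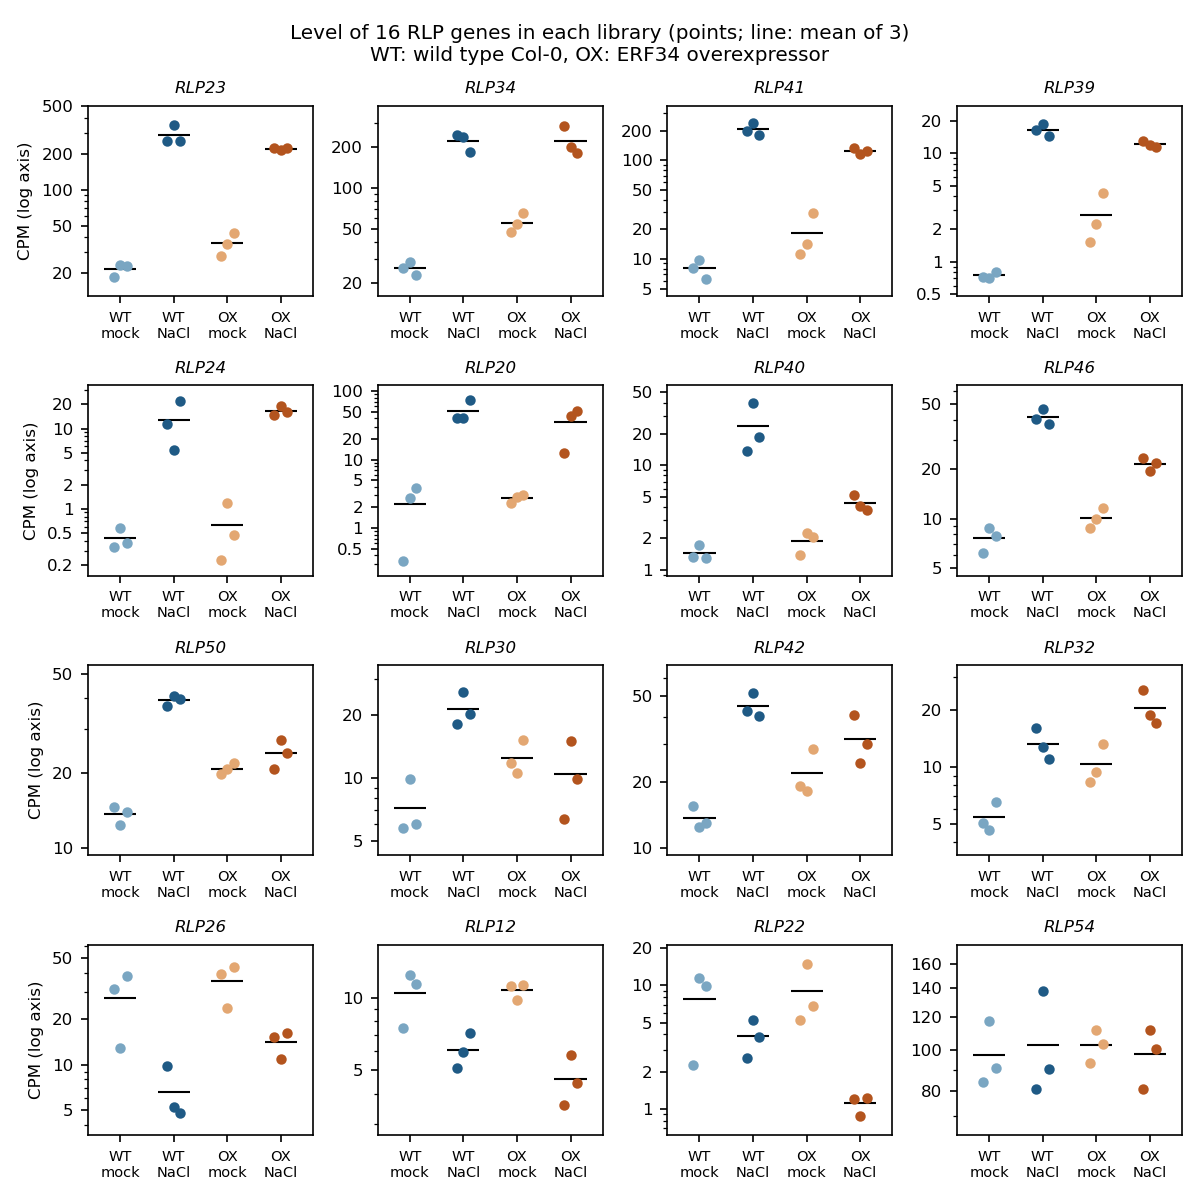
Level of 16 RLP genes in each of the 12 libraries, in CPM on a log axis that differs between panels. Points are libraries, grouped as wild type (WT) or ERF34 overexpressor (OX) under mock or NaCl, and the line is the mean of 3. RLP23, RLP34 and RLP41 reach above 100 CPM in all 6 NaCl libraries, RLP40 lies at 13.8 to 39.3 CPM in wild-type NaCl and 3.77 to 5.23 CPM in overexpressor NaCl libraries, and RLP54 stays near 100 CPM in every group.

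Salt raised many RLP genes in wild-type leaves. Of the 47 members tested, 26 rose (55.3%, against 20.3% of all genes tested) and 2 fell (4.26%, against 21.1%). The median log2 fold change of the 47 was 1.295, beside -0.01 for all genes, and 39 of the 47 were above 0, beside 49.2% of all genes. With upper-quartile scaling the medians were 1.22 and -0.09, and 37 of the 47 were above 0. Among the 26, 16 rose by at least 2 on the log2 scale and 7 by at least 4. Mesophyll and phloem marker sums were lower in these NaCl leaves, and their part in the result was not tested. Of the 3 mesophyll markers, 1 passed as lower (median log2 fold change -0.22), and of the 3 phloem markers 2 did (median -0.45).

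**Figure D2:**
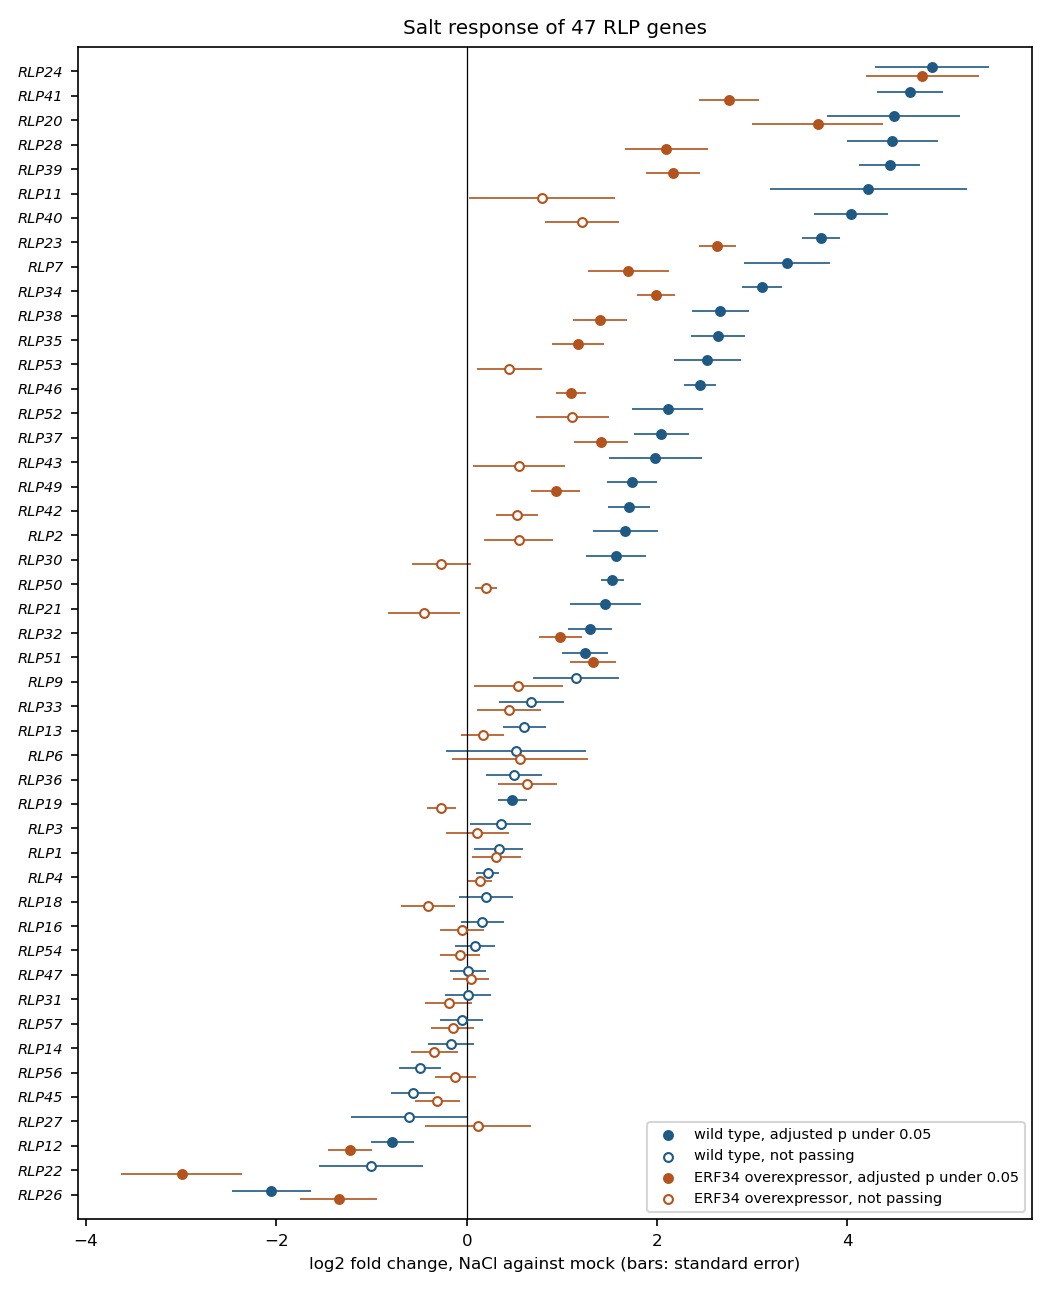
Log2 fold change of NaCl against mock for the 47 RLP genes tested, in wild type and in the ERF34 overexpressor, ordered by the wild-type value. Bars are standard errors and filled points passed an adjusted p of 0.05 in edgeR. In wild type 26 genes rose, led by RLP24, RLP41 and RLP20, and 25 of these 26 have a smaller value in the overexpressor. The 26 were picked by their wild-type rise, so this last count is a description.

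RLP23, the receptor of the nlp20 peptide found in necrosis-inducing proteins of many microbes, had the smallest p of the 47. It lies at chr2:13859769-13862614 (gene AT2G32680, positions from TAIR10.1). Wild-type leaves had 18.6, 23.4 and 23.1 CPM without salt and 255, 349 and 255 CPM with it. Every salt library was far above every mock library. The log2 fold change was 3.72 (SE 0.203, adjusted p = 7.01e-06), a 13.2-fold rise. Its neighbour in the array, RLP22, did not pass in wild type, at 7.83 ± 4.90 CPM under mock and 3.88 ± 1.32 CPM under NaCl.

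RLP34 and RLP41, for which no ligand is named here, reached similar levels. RLP34 was at 25.8, 28.3 and 22.7 CPM under mock and 243, 235 and 182 CPM under NaCl in wild type, with no overlap, a log2 fold change of 3.10 (SE 0.210, adjusted p = 1.43e-05). RLP41 went from 8.19, 9.85 and 6.32 CPM to 196, 238 and 182 CPM, a log2 fold change of 4.66 (SE 0.346, adjusted p = 2.28e-05). RLP41 sits in an array of 4 members within 20.7 kb of chromosome 3 (chr3:9099060-9119804), and RLP39, RLP40, RLP41 and RLP42 all rose. RLP39 was at 0.726, 0.709 and 0.805 CPM under mock and 16.4, 18.6 and 14.3 CPM under NaCl, a log2 fold change of 4.44 (SE 0.324, adjusted p = 1.86e-05). RLP40 was at 1.32, 1.74 and 1.3 CPM and 13.8, 39.3 and 18.8 CPM, with library 2 of the salt group well above the others, and its log2 fold change was 4.04 (SE 0.394, adjusted p = 6.6e-05). Of the 50-base exon words, 31.6% of RLP42, 26.9% of RLP40, 14.2% of RLP41 and 13.4% of RLP39 occur elsewhere in the genome. Among members, RLP42 shared most with RLP40 (28.2% of its words) and RLP41 with RLP39 (8.76%). RLP49 and RLP34 had 22.9% and 18.6% elsewhere, RLP47 16.9%, RLP18 15.6%, RLP35 14.9%, RLP48 14.2% and RLP53 12.9%. How the counting assigned reads from shared words is not given, so the split between genes that share them is uncertain.

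RLP42 recognises fungal endopolygalacturonases. Its level in wild type was 15.6, 12.4 and 13.1 CPM under mock and 42.6, 51.3 and 40.4 CPM under NaCl, without overlap, a log2 fold change of 1.71 (SE 0.221, adjusted p = 0.000229). RLP30, needed for the response to a Sclerotinia elicitor, went from 5.74, 9.92 and 6.01 CPM to 18.1, 25.8 and 20.3 CPM, a log2 fold change of 1.57 (SE 0.314, adjusted p = 0.00277). RLP30 lies wholly inside the model of AT3G05350 on the same strand, which was at 89.5 CPM under mock and 73.0 CPM under NaCl and did not pass (adjusted p = 0.0959). RLP32, the receptor of bacterial translation initiation factor 1, went from 5.08, 4.64 and 6.50 CPM to 16.2, 12.8 and 11.0 CPM, a log2 fold change of 1.295 (SE 0.234, adjusted p = 0.00151). All 3 receptors were higher in every salt library than in any mock library of wild type. RLP1, which mediates the response to the Xanthomonas elicitor eMax, did not pass, with 14.6, 8.05 and 12.4 CPM under mock and 13.4, 15.0 and 15.8 CPM under NaCl (adjusted p = 0.320). RLP44, which links the cell wall to brassinosteroid signalling, was at 0.682 ± 0.0778 CPM under mock and 0.246 ± 0.116 CPM under NaCl and was not tested.

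Several further steep rises started from low mock levels. RLP24 was at 0.330, 0.580 and 0.372 CPM under mock and 11.3, 5.41 and 22.0 CPM under NaCl in wild type, a log2 fold change of 4.89 (SE 0.597, adjusted p = 0.000181). Its salt libraries spread over a wide range, yet the lowest was above the highest mock library. RLP20 went from 0.330, 2.71 and 3.78 CPM to 40.3, 40.2 and 73.6 CPM, a log2 fold change of 4.49 (SE 0.700, adjusted p = 0.000687). Its first mock library was well below the other two. RLP28 and RLP11 had 6 and 4 counts over the wild-type mock group, so their log2 fold changes of 4.47 (SE 0.477, adjusted p = 9.24e-05) and 4.22 (SE 1.03, adjusted p = 0.00801) rest on few reads. RLP7 rose from 1.53 ± 0.187 to 15.9 ± 5.66 CPM, a log2 fold change of 3.36 (SE 0.450, adjusted p = 0.000287). Without 1 mock library of wild type (replicate 2) the value of RLP11 was 5.43, and without 1 salt library (replicate 3) that of RLP24 was 4.26.

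Among the rest of the 26, the log2 fold change was 2.66 for RLP38, 2.64 for RLP35, 2.53 for RLP53, 2.45 for RLP46, 2.11 for RLP52 and 2.05 for RLP37. RLP52 is known for a role against powdery mildew. Smaller rises were those of RLP43 (1.98), RLP49 (1.73), RLP2 (1.67), RLP50 (1.53), RLP21 (1.46), RLP51 (1.24) and RLP19 (0.48). RLP51 is also known as SNC2, a regulator of basal defence. RLP19, at 32.5 ± 0.425 and 45.3 ± 8.21 CPM, was the smallest rise that passed (adjusted p = 0.0284), in 14 of 20 alternative analyses as well. RLP49 is annotated as a transcribed pseudogene, yet it reached 127 ± 14.7 CPM under NaCl from 38.2 ± 11.8 CPM under mock. RLP37, RLP40, RLP46 and RLP50 overlap a gene on the opposite strand over most or all of their length, as do RLP26 and RLP3. Whether the counting used strand is not stated. Under NaCl those partners were at 12.7, 0.738, 1.37, 0.998, 3.94 and 3.44 CPM in wild type, each below its RLP gene. Under mock the partner of RLP37 (AT3G23100) was at 9.51 CPM in wild type, above RLP37 at 5.92 CPM.

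RLP26 and RLP12 fell in wild type. RLP26 was at 31.2, 12.9 and 38.0 CPM under mock and 9.76, 5.29 and 4.82 CPM under NaCl, a log2 fold change of -2.05 (SE 0.416, adjusted p = 0.00303). It lies in the array of RLP24 to RLP28 on chromosome 2 (chr2:14013797-14034433, 5 members), where RLP24 and RLP28 rose and RLP25 had no count. RLP12 fell from 7.46, 12.4 and 11.4 CPM to 5.12, 5.94 and 7.11 CPM, a log2 fold change of -0.78 (SE 0.225, adjusted p = 0.0178) that passed in 15 of 20 alternatives, while RLP11 beside it rose. The groups of both genes did not overlap. The other 19 tested members did not pass. Among them RLP54, the most abundant under mock, was at 97.2 ± 17.4 and 103 ± 30.8 CPM, RLP4 at 47.1 ± 6.59 and 54.9 ± 2.45 CPM, and RLP47 at 48.5 ± 12.1 and 49.1 ± 2.34 CPM. RLP3, also known as RFO2 for its part in resistance to Fusarium, was at 5.47 ± 1.69 and 7.01 ± 1.20 CPM. RLP13, RLP33 and RLP45 passed once the replicate number was a block (adjusted p = 0.0432, 0.0272 and 0.0156), with RLP13 and RLP33 higher and RLP45 lower under salt.

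Other members did not pass in wild type. RLP9 was at 6.01, 8.12 and 6.44 CPM under mock and 13.3, 12.1 and 20.2 CPM under NaCl, with every salt library above the mock libraries (adjusted p = 0.0617). RLP31 was at 15.6 ± 3.41 and 15.7 ± 3.34 CPM, and RLP57 at 5.41 ± 1.14 and 5.23 ± 1.51 CPM. RLP18, the other annotated pseudogene, was at 5.32 ± 0.542 and 6.11 ± 2.01 CPM. RLP6, RLP14, RLP16, RLP27, RLP36 and RLP56 had no group mean above 3.73 CPM in any of the 4 groups. By position, 36 of the 54 members lie in 13 arrays of neighbours within 50 kb, and 18 stand alone. Members of an array could differ in their call, as RLP24 to RLP28 did. In the array of RLP13 to RLP16 none passed in the main model, with RLP15 not tested. In that of RLP47 to RLP50, RLP49 and RLP50 rose, RLP47 did not pass and RLP48 was not tested. In that of RLP34 and RLP35 both rose.

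The 250 bases before the annotated start were compared because many members moved together. The W-box core, bound by WRKY factors (TTGAC, or GTCAA on the other strand), was in 41 of the 54 windows (75.9%), beside 44.9% of 27443 windows of protein-coding genes. The ABRE core, bound by factors of the abscisic acid response (ACGTG, or CACGT), was in 20 (37.0%, beside 22.9%). It was in 14 of the 26 members that rose in wild type, 2 of 2 that fell and 2 of the 19 that did not pass, and the W-box core was in 22, 2 and 14 of them. The DRE core (CCGAC, or GTCGG) was in 5 windows (9.3%, beside 12.0%) and the GCC box (GCCGCC, or GGCGGC), bound by many ERF proteins, in 0 (beside 1.9%). Whether ERF34 itself binds any of these motifs was not tested. Letters shared by overlapping matches count for both motifs. A match is a description and not a binding site. Not all windows are independent: RLP39 and RLP41 share a near-identical stretch that holds both cores, and so do RLP43 and RLP53. RLP34 holds a stretch similar to that of RLP43 and RLP53, also with both cores. RLP42 repeats the RLP41 stretch around the ABRE core, without the W-box core. The windows of RLP20, RLP23 and RLP28 also resemble each other, and the list of such likenesses may not be complete. RLP37 and RLP38 share a near-identical stretch around the W-box core. These members all rose in wild type, so the shares given here count copied sequence more than once. In 9 members the annotated start is the first coding base, so their window may hold an untranslated leader, and in 17 it runs into an annotated exon. The windows of 5 members outside both classes are shown 5′ to 3′ on the gene's strand (RefSeq, TAIR10.1), with W-box and ABRE cores in capitals: RLP34 (chr3:3453986-3454235, minus strand), RLP28 (chr2:14031748-14031997, plus) and RLP46 (chr4:2032918-2033167, plus), which rose, RLP12 (chr1:26909542-26909791, plus), which fell, and RLP47 (chr4:8007598-8007847, minus), which did not pass.
RLP34: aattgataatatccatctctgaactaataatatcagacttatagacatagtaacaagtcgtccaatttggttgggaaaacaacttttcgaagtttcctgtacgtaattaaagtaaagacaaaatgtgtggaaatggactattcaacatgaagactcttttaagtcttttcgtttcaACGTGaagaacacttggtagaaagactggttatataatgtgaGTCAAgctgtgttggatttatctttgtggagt
RLP28: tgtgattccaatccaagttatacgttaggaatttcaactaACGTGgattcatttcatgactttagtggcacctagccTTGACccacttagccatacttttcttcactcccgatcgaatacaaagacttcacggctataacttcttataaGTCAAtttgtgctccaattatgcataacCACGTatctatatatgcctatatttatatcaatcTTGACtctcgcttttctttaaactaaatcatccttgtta
RLP46: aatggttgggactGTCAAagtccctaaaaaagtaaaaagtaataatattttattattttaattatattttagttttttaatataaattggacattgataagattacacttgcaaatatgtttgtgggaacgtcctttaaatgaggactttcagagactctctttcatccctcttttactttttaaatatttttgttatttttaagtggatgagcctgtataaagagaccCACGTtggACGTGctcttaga
RLP12: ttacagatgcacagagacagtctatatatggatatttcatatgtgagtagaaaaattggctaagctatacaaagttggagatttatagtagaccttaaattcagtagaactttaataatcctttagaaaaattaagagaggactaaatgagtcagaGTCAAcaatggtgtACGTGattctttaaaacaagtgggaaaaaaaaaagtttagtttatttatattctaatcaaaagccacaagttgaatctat
RLP47: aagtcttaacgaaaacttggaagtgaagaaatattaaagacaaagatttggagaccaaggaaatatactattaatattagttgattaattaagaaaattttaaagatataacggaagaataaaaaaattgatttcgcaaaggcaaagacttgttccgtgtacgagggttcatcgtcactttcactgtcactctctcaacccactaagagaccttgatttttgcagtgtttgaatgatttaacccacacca
The RLP28 window holds 3 W-box and 2 ABRE cores, and that of RLP46 holds 1 and 2, the latter pair close to the start. RLP34, which rose, and RLP12, which fell, each hold 1 of both kinds, and RLP47 holds neither.

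In the overexpressor, salt raised 15 of the 47 members tested (31.9%, against 9.72% of all genes) and 3 fell (6.38%, against 8.55%). The median log2 fold change was 0.53, beside 0.02 for all genes. Phloem markers summed to 636 to 692 CPM under mock and 452 to 554 CPM under NaCl there. Xylem markers summed to 2.99 to 8.03 CPM under mock and 9.26 to 12.6 CPM under NaCl in the overexpressor, without overlap. Guard cell marker sums overlapped between mock and NaCl. The part of phloem and xylem markers, and of the mesophyll and flower markers given above, was not tested. The 15 that rose were 15 of the 26 that rose in wild type, and 11 of the 26 did not pass. RLP24 rose from 0.230, 1.17 and 0.473 CPM to 14.9, 18.9 and 16.2 CPM, a log2 fold change of 4.79 (SE 0.594, adjusted p = 0.00110). RLP20 rose by 3.69 (SE 0.688, adjusted p = 0.00666), with 12.3, 43.0 and 50.6 CPM under NaCl and its first library far below the other two. RLP41 went from 11.3, 14.2 and 29.1 CPM to 132, 115 and 123 CPM, a log2 fold change of 2.75 (SE 0.317, adjusted p = 0.000697). Without 1 mock library of the overexpressor (replicate 2) the value of RLP24 was 5.54.

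RLP23 was at 27.9, 35.1 and 43.5 CPM under mock and 223, 214 and 223 CPM under NaCl in the overexpressor, a log2 fold change of 2.63 (SE 0.193, adjusted p = 8.96e-05). RLP34 was at 47.6, 53.8 and 64.9 CPM and 281, 198 and 181 CPM, a log2 fold change of 1.99 (SE 0.201, adjusted p = 0.000367). Both groups of salt libraries stood clear of the mock libraries. The other rises were those of RLP39 (2.17), RLP28 (2.10), RLP7 (1.70), RLP37 (1.41), RLP38 (1.40), RLP51 (1.33), RLP35 (1.17), RLP46 (1.09), RLP32 (0.98) and RLP49 (0.94) on the log2 scale. RLP40 and RLP52 missed the threshold (adjusted p = 0.0553 and 0.0697) and passed with the replicate number as a block (adjusted p = 0.0268 and 0.0156). RLP30 and RLP42 did not pass, at log2 values of -0.27 and 0.53, with RLP30 at 11.8, 10.6 and 15.2 CPM under mock and 6.35, 15.1 and 9.92 CPM under NaCl. RLP1 was at 14.3 ± 3.35 and 17.8 ± 4.94 CPM and did not pass either.

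RLP22, RLP12 and RLP26 fell with salt in the overexpressor. RLP22 was at 5.21, 14.8 and 6.77 CPM under mock and 1.19, 0.880 and 1.23 CPM under NaCl, a log2 fold change of -3.00 (SE 0.634, adjusted p = 0.0109). The mock libraries varied widely, and with replicates 1 and 3 of every group alone the adjusted p was 0.0806. RLP12 fell by 1.22 on the log2 scale (adjusted p = 0.00705) and RLP26 fell by 1.34 (adjusted p = 0.0426). Both stood lower in every salt library than in any mock library. RLP26 passed in 12 of 20 alternative analyses.

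Under mock, no member passed the test between overexpressor and wild-type leaves. Of the 47, 0 were higher (against 0.0635% of all genes) and 0 lower (against 0.0371%), while 20 had an unadjusted p under 0.05 and DESeq2 called 9, all higher. Of all 18886 genes, 1386 had an unadjusted p under 0.05 and DESeq2 called 196. The log2 difference was above 0 in 42 of the 47, also with 2 other scalings, beside 46.1% of all genes. Its median was 0.47, beside -0.02 for all genes. The smallest adjusted p was that of RLP34 (0.0844), with 25.8, 28.3 and 22.7 CPM in wild-type leaves, against 47.6, 53.8 and 64.9 CPM in the overexpressor. RLP39 was at 0.726, 0.709 and 0.805 CPM without the transgene and 1.53, 2.24 and 4.25 CPM with it, a log2 difference of 1.83 (SE 0.338, adjusted p = 0.0932). In both genes every overexpressor library lay above every wild-type library.

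Under NaCl, 3 of the 47 were lower in the overexpressor (6.38%, against 2.32% of all genes) and 0 were higher (against 2.07%). At an unadjusted p under 0.05 there were 16, and DESeq2 called 8, beside 4203 and 1763 of all genes. RLP40 was at 13.8, 39.3 and 18.8 CPM in wild-type leaves, against 5.23, 4.05 and 3.77 CPM in the overexpressor, a log2 difference of -2.46 (SE 0.358, adjusted p = 0.0119). RLP46 was at 40.3, 46.9 and 37.8 CPM and 23.4, 19.5 and 21.8 CPM, a log2 difference of -0.95 (SE 0.156, adjusted p = 0.0180). RLP50 was at 37.5, 41.0 and 39.8 CPM and 20.8, 27.1 and 24.1 CPM, a log2 difference of -0.72 (SE 0.119, adjusted p = 0.0180). All 3 genes were lower in each overexpressor library than in any wild-type library. Mesophyll and epidermis marker sums were higher in every overexpressor NaCl library than in any wild-type NaCl library. Their part in the differences between genotypes under NaCl was not tested. Without overexpressor NaCl replicate 3, 0 of the members passed (and 77 of all genes), and without wild-type NaCl replicate 2 or 3 there was 1. Over all 20 alternatives the difference ran from -2.74 to -1.85 for RLP40, from -1.01 to -0.79 for RLP46 and from -0.81 to -0.62 for RLP50.

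Further members were lower in the overexpressor under NaCl by value without passing. RLP21 was at 9.76, 14.0 and 11.4 CPM in wild-type leaves, against 5.67, 2.73 and 5.58 CPM in the overexpressor (adjusted p = 0.0709). RLP52 was at 13.0, 18.8 and 18.9 CPM and 3.88, 8.88 and 9.02 CPM (adjusted p = 0.0816). RLP53 was at 9.28, 15.7 and 11.4 CPM and 5.97, 6.16 and 4.02 CPM (adjusted p = 0.0717), and RLP30 at 21.4 ± 3.96 and 10.5 ± 4.42 CPM (adjusted p = 0.0846). In these 4 the groups did not overlap. RLP41 was at 196, 238 and 182 CPM in wild-type leaves, against 132, 115 and 123 CPM in the overexpressor, also without overlap, a log2 difference of -0.74 (SE 0.295, adjusted p = 0.176). RLP23 and RLP34 had log2 differences of -0.38 (SE 0.181, adjusted p = 0.247) and 0.00 (SE 0.193, adjusted p = 0.994). RLP32 was at 13.3 ± 2.64 CPM in wild-type leaves, against 20.5 ± 4.40 CPM in the overexpressor (adjusted p = 0.137), with every overexpressor library higher. RLP42 and RLP1 did not pass either, at log2 differences of -0.49 and 0.27. The untested RLP44 was at 0.246 ± 0.116 and 0.619 ± 0.0790 CPM.

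**Figure D3:**
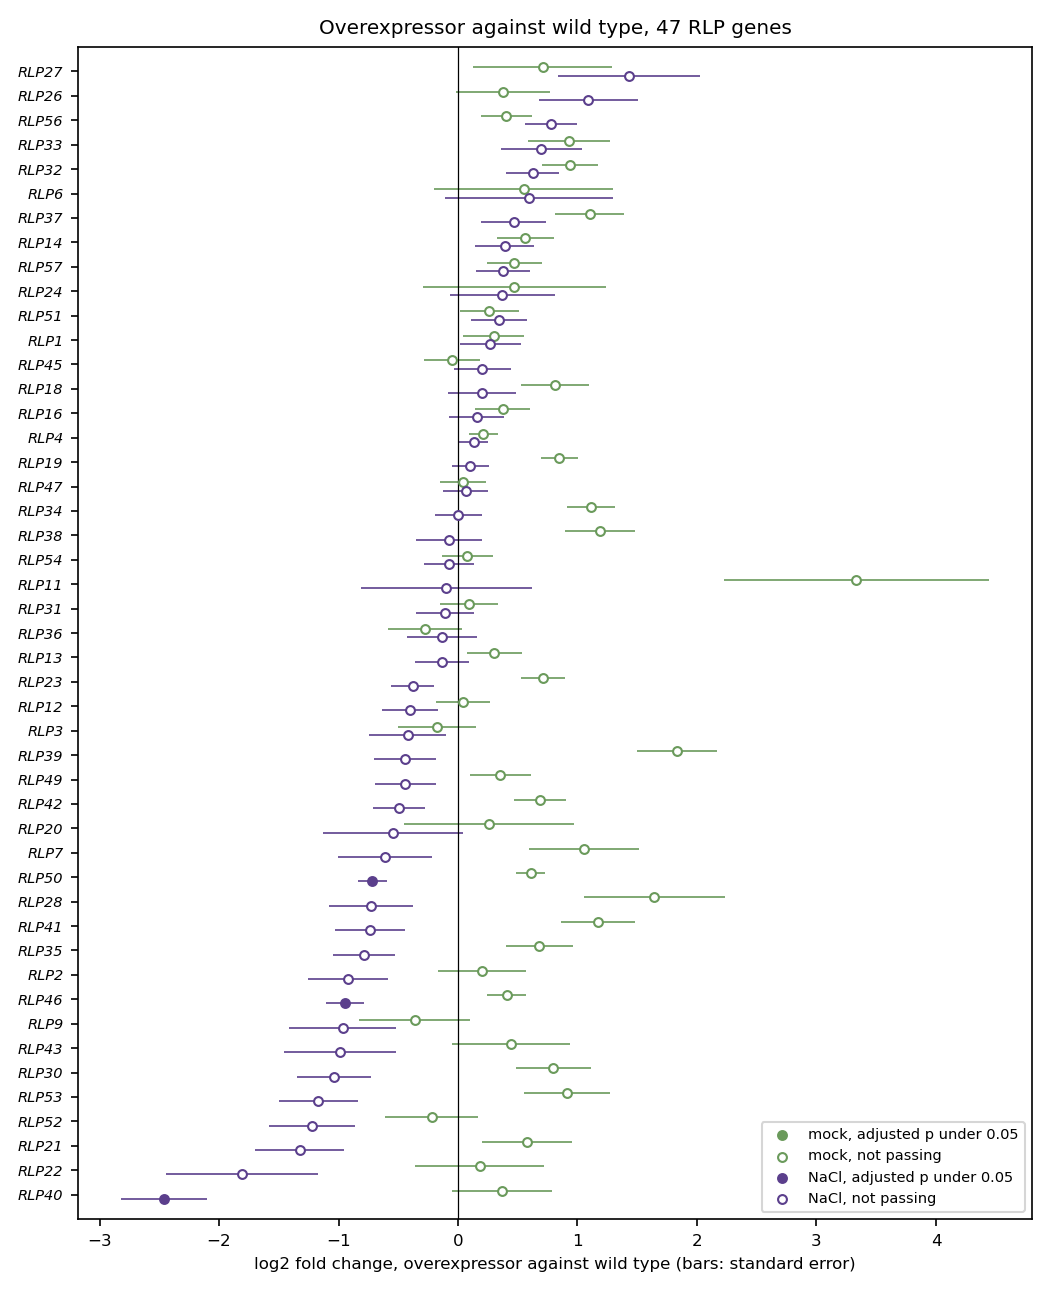
Log2 difference of the ERF34 overexpressor against wild type for the 47 RLP genes tested, under mock and under NaCl, ordered by the NaCl value. Bars are standard errors and filled points passed an adjusted p of 0.05 in edgeR. The mock values lie mostly above 0 with none passing, and RLP40, RLP46 and RLP50 passed below 0 under NaCl.

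The difference between both salt responses was tested directly as an interaction. By edgeR 0 of the 47 passed, as did 0% of all genes tested, while 19 of the 47 and 2580 of all 18886 had an unadjusted p under 0.05. DESeq2 called 12 of the 47, all with the lower salt value in the overexpressor, and 640 of all genes. The difference was below 0 in 39 of the 47 and above 0 in 8, while 54.4% of all genes were above 0. Its median was -0.64, beside 0.04 for all genes. In the 26 that rose in wild type the median log2 fold change was 2.49 there and 1.14 in the overexpressor, and 25 of them had the smaller value in the overexpressor. The 26 were picked by their wild-type rise, so this last comparison is a description. RLP50 came nearest to the threshold, with a difference of -1.33 (SE 0.169, adjusted p = 0.0530): salt took it from 14.7, 12.4 and 13.9 CPM to 37.5, 41.0 and 39.8 CPM in wild type and from 19.8, 20.8 and 22.0 CPM to 20.8, 27.1 and 24.1 CPM in the overexpressor. RLP46 followed with -1.36 (SE 0.226, adjusted p = 0.0689) and RLP39 with -2.27 (SE 0.426, adjusted p = 0.0744).

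Some of the signalling partners of the receptors rose with salt as well. Of 8 co-receptor and adaptor genes, 2 rose in both genotypes: BAK1, by 1.25 (SE 0.238, adjusted p = 0.00208) in wild-type leaves and 0.80 (SE 0.236, adjusted p = 0.0402) in overexpressor leaves, and its close relative SERK4, by 1.96 (SE 0.385, adjusted p = 0.00260) and 1.42 (SE 0.381, adjusted p = 0.0278). SOBIR1, the constitutive kinase partner, was at 162, 550.1 and 704 CPM under mock and 903, 1225 and 1140 CPM under NaCl in wild type. Its mock libraries spread widely and it did not pass (adjusted p = 0.0601), nor in the overexpressor (adjusted p = 0.167). The medians of the 8 were 1.03 and 0.81 on the log2 scale, beside -0.01 and 0.02 for all genes. Of all genes tested, 20.3% rose in wild type and 9.72% in the overexpressor, and 2 of 8 is near the wild-type background. Of 8 downstream genes, 6 rose in wild type and 5 in the overexpressor, with medians of 0.88 and 0.78. EDS1 rose by 1.27 (SE 0.244, adjusted p = 0.00220) and 1.37 (SE 0.245, adjusted p = 0.00539), and PAD4 by 1.68 (SE 0.337, adjusted p = 0.00287) and 1.81 (SE 0.340, adjusted p = 0.00673). ADR1, ADR1-L1 and SAG101 also rose in both, ADR1-L2 in wild type, and the kinase BIK1 and the oxidase RBOHD passed in neither.

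**Figure D4:**
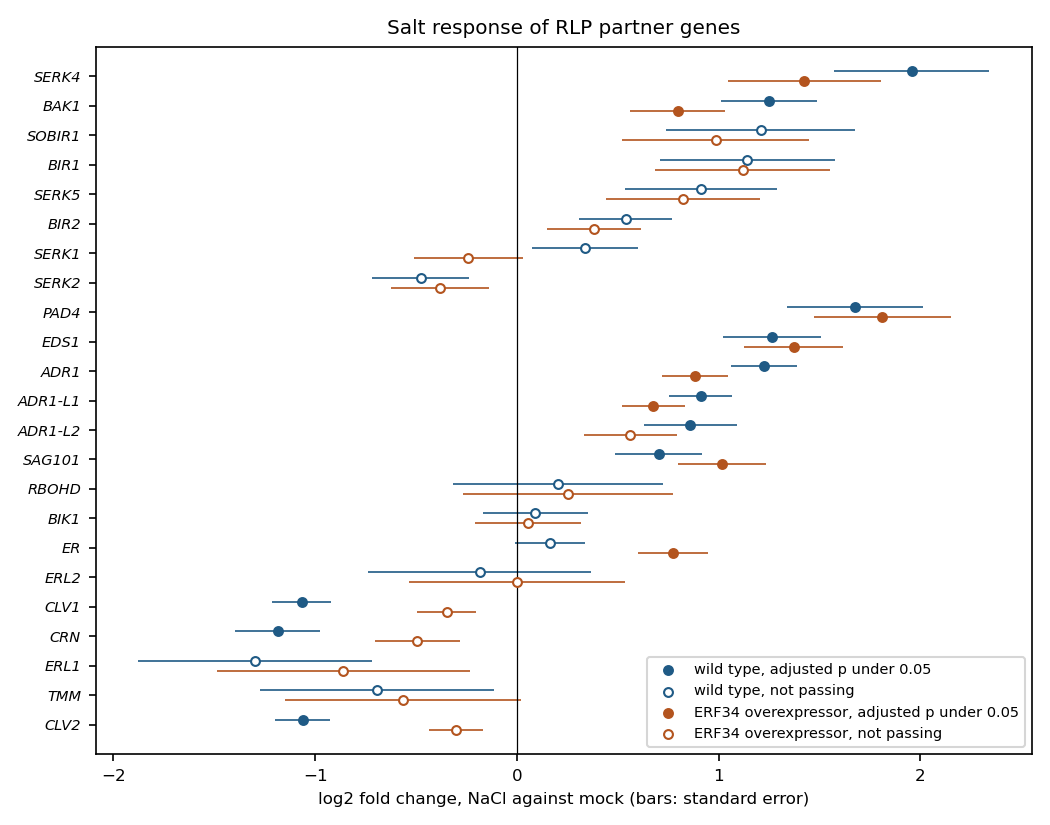
Log2 fold change of NaCl against mock for RLP co-receptors, downstream signalling genes, developmental partners and the family members CLV2 and TMM, in wild type and in the ERF34 overexpressor. Bars are standard errors and filled points passed an adjusted p of 0.05 in edgeR. BAK1, SERK4, EDS1 and PAD4 rose in both genotypes, and CLV1, CRN and CLV2 fell in wild type.

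Both family members that carry another name were followed too. CLV2 fell by 1.06 on the log2 scale in wild type (adjusted p = 0.000228), with its partners CLV1 (-1.07) and CRN (-1.19), while TMM did not pass. The 5 kinase partners of CLV2 and TMM had medians of -1.07 and -0.35. Of these, 2 were lower in wild type (beside 21.1% of all genes tested) and 1 was higher in the overexpressor (beside 9.72%). Under NaCl, CLV2 and CLV1 were higher in the overexpressor than in wild type, by 0.75 (SE 0.138, adjusted p = 0.0205) and 0.84 (SE 0.147, adjusted p = 0.0184). ER, a kinase partner of TMM, was also higher there, by 1.60 (SE 0.177, adjusted p = 0.00396). Of all genes tested, 2.07% were higher in the overexpressor under NaCl. Mesophyll and epidermis marker sums were higher there too, and their part was not tested. Of 7 other pattern-receptor kinases, 4 rose in wild type (FLS2, CERK1, RLK7 and EFR) and 2 in the overexpressor (FLS2 and CERK1), with medians of 1.08 and 0.82, to be read against the same shares of all genes (20.3% and 9.72%). FLS2, the flagellin receptor, rose by 1.33 (SE 0.222, adjusted p = 0.000981) and 1.23 (SE 0.222, adjusted p = 0.00572). Of 8 output genes of pattern-triggered immunity, 5 rose in wild type and 2 in the overexpressor, with medians of 1.96 and 1.14. PAD3, the last enzyme of camalexin synthesis, rose by 4.62 (SE 0.582, adjusted p = 0.000217) and 1.91 (SE 0.521, adjusted p = 0.0300) and was lower in the overexpressor under NaCl, with a log2 difference of -2.26 (SE 0.523, adjusted p = 0.0410). FRK1, NHL10 and PR1 rose in wild type by 1.83, 3.41 and 2.87, and WRKY29 rose in both genotypes.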

How the data were processed

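Gene counts for 12 libraries were used as deposited by the authors, whole-number counts made, per the submitters' processing notes, with TopHat and Cufflinks named and the TAIR10 genome; the file is labelled an HTSeq table, and no version or strand setting is stated. The library kit keeps strand, per the labels' protocols. Entries without a gene name, 7 in all, held 0.382% to 0.897% of counts and were left out. Genes were filtered by filterByExpr, scaled by TMM and fitted in 1 model of 4 groups (edgeR 4.0.16, R 4.3.3, robust, residual df 8). DESeq2 1.42.0 was an alternative. The members and gene lists were chosen with earlier results of these data known. Named in full were called members of at least 1 CPM, up to 10 rising and 10 falling per comparison, and RLP1, RLP23, RLP30, RLP32, RLP42 and RLP44. From the gene lists, 5 entries were left out because identifier and symbol did not match. Positions and windows came from TAIR10.1. Same-numbered libraries deviated together (r above 0.1 in every pair) for both salt comparisons and for genotype under mock, so the numbers were taken to pair them there. The main model held no term for the replicate number, so its adjusted p values leave this pairing unused. With the number as a block, 9650 genes were called for salt in wild type, against 7814 in the main model. For salt in the overexpressor these were 5327 and 3449. For genotype under NaCl, replicate 2 gave r = -0.02.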

Additional observations from a re-analysis of the deposited data

How the results depend on the processing

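Counts of called genes were recomputed under the alternatives. No log2 value of a member that passed in any analysis changed sign. The interaction of RLP1, which never passed (-0.03), did, at 0.19 with replicates 1 and 3, 0.034 with upper-quartile factors and -0.27 to 0.18 with 1 library left out. Of 137 further member values that never passed, 49 changed sign in some alternative, the largest of them 0.59 in size. For salt in wild type, every count stayed within 1.5 times of 28 members (26 to 31 with 1 library left out) and 7814 genes (5921 to 8444). For salt in the overexpressor, 18 members (13 to 19 with 1 library left out) and 3449 genes were called; the genes numbered 1519 to 3634 with 1 library left out, 2227 with only the groups compared, 5327 with the replicate block, and 1966 with replicates 1 and 3 alone, an alternative chosen after seeing the data. For genotype under mock, 0 members and 19 genes were called, against 9 and 196 by DESeq2, 4 genes with only the groups compared, 2 genes with replicates 1 and 3, and 0 to 1 members and 3 to 18 genes with 1 library left out. For genotype under NaCl, 3 members and 829 genes were called, against 8 and 1763 by DESeq2, 0 and 13 with only the groups compared, 9 and 2344 with the replicate block, 0 and 4 with replicates 1 and 3, and 0 to 4 and 45 to 1017 with 1 library left out. For the interaction, 0 members and 0 genes were called, against 12 and 640 by DESeq2, 7 and 379 with the replicate block, 1 and 8 with no filter on low counts, 1 and 5 with RLE factors, and 0 to 2 and 0 to 73 with 1 library left out. Of 18 same-numbered pairs of libraries, 17 matched their own number best. The exception was replicate 2 between wild-type and overexpressor NaCl libraries (r = -0.02), where replicates 1 and 3 gave r = 0.37 and 0.53. Whether the number pairs the libraries is therefore not settled for genotype under NaCl and for the interaction. The causes were not tested. Among single genes in the overexpressor, RLP7 passed in 14, RLP35 in 16 and RLP49 in 16 of 20 alternatives. With replicates 1 and 3 the NaCl difference of RLP40 was -1.85, and that of RLP22 with salt in the overexpressor -2.30. The block changed no other member's call in the salt comparisons and in genotype under mock than those given in the report. Depth limits the low members: 3 counts over a group correspond to 0.0606 to 0.0833 CPM.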
